A study of Mus musculus with 2 samples.

Results

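Transcript levels of the EGF receptor family and its ligands were compared between a wild-type (WT) and a Stat6 knockout (KO) culture of mouse intestinal stem cells. The family was taken as 10 genes chosen by symbol, 3 ErbB receptors (Egfr, Erbb2 and Erbb3) and 7 EGF-like ligands (Egf, Tgfa, Hbegf, Areg, Ereg, Btc and Epgn), out of 18944 genes listed in both tables. All 10 were found. The data were 2 RNA-sequencing libraries, 1 for each genotype, from cells of mice aged 2 months that carried the Lgr5GFP-CreERT2 allele in both groups. KO cells came from infection with a CRISPR/Cas lentivirus against Stat6 and a screen for cells that had lost it. The sources used here do not say whether WT cells were given any virus, or whether the KO cells are 1 clone. The medium described for both cultures was DMEM/F12 with N2, B27, N-acetylcysteine, Rspo1 and Y27632, and it lists EGF at 50 ng/ml and again, from another supplier, at 20 ng/ml, so added ligand was described for both groups, although a second listing of the same factor may be an error in the record and the concentrations are given as written. With 1 library per genotype there was no replicate spread, no test and no p-value, and every difference below is between these 2 libraries.

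ErbB receptors are cell-surface tyrosine kinases that pair on binding EGF-like ligands and signal through the RAS-ERK and PI3K-AKT routes. The ligands are made as membrane-anchored precursors and are released by metalloproteinases. In the intestine this pathway drives division of crypt cells, Paneth cells are a known source of EGF and TGF-alpha for neighbouring stem cells, and EGF is a standard additive to gut organoid cultures. STAT6 is the transcription factor activated by the cytokines IL-4 and IL-13, and the comparison asks how expression differs without it.

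Values were FPKM, a level per transcript length and per library total, so levels of different genes can be set side by side. Differences are given as the log2 ratio, log2((KO FPKM + 1)/(WT FPKM + 1)), in which the added 1 FPKM understates the change of low genes. A gene counted as measured if either library had 1 FPKM or more of it, which 12079 genes reached, and as higher or lower at 2-fold or more. The median log2 ratio of the measured genes was -0.18, and 69.6% of them lay below 0. Past 2-fold, 2.44% of the measured genes were higher in KO and 2.19% lower, so that 52.8% of such genes were higher. When KO was divided by a TMM factor (the trimmed mean of the log ratios), the median moved to 0.02 and that share to 71.9%, so members are also given relative to the median of all genes. Stat6 itself stood at 41.3 FPKM in WT against 44.2 in KO (log2 ratio 0.10), a level that does not check the genotype, since small CRISPR lesions need not lower a transcript.

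The label of the cells was set against marker genes. Lgr5, which defines these stem cells, was at 1.79 FPKM in WT against 1.88 in KO, and the other 5 stem cell markers ranged from Sox9, lower at 22.5 and 9.68 FPKM (log2 ratio -1.14), and Ascl2 at 9.28 and 5.29 FPKM (-0.71), to Smoc2 at 9.88 and 11.4 FPKM (0.19). The 8 absorptive enterocyte markers summed to 3465 FPKM and 13961 FPKM. Both cultures therefore held abundant transcripts of differentiated cells, and more of the enterocyte ones in KO. In such bulk libraries, fewer cells of a type and less RNA per cell cannot be told apart.

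The promoter windows of the receptor with the largest difference and of the most abundant ligand are shown because the comparison concerns a transcription factor. From a RefSeq promoter table (build GRCm38.p6), 8 windows of 7 of the 10 members were used. The window of Hbegf is not reported here. The 2 genes shown were chosen for printing after their values were seen. The sequences are the 250 bases before the annotated start, 5′ to 3′ on the plus strand, and capitals mark a GC box (GGGCGG on either strand). The Egfr window lies at chr11:16751953-16752202 and the Areg window at chr5:91139349-91139598.
Egfr: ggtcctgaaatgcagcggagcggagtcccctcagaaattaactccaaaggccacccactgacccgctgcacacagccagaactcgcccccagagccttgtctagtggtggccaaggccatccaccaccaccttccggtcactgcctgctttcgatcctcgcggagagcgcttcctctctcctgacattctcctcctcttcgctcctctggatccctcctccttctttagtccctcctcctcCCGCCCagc
Areg: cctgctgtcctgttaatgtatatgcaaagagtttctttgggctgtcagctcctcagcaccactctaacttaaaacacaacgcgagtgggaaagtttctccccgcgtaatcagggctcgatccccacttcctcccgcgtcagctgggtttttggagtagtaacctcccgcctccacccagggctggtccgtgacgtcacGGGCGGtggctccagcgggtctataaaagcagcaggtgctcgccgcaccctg

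Each window held 1 GC box, an element bound by SP-family factors, 9 bases before the start in Egfr and 52 bases before it in Areg. A GC box was found in 3 of the 8 member windows, those of Egfr, Areg and Tgfa, and in 32.7% of all 32851 windows of this length. The letters of a STAT6 site, TTCNNNNGAA, were in 0 of the 8 member windows, where 5.85% of all windows held them. The shorter STAT spacing TTCNNNGAA was in 0 of 8 (7.02% of all windows), and the AP-1 site TGANTCA was in 0 of 8 (6.75%). These STAT and AP-1 motifs read the same on both strands, and no marked GC box overlapped another motif searched. A missing match says only that those letters are not in these windows, which leave out Hbegf, Ereg and Erbb3.

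Amphiregulin was by far the most abundant member in both libraries, and the ligand Hbegf showed the largest difference between them. Areg, which encodes this low-affinity ligand of the EGF receptor, was at 733 FPKM in WT against 544 in KO, position 110 and position 141 among all genes. In WT it was followed by Hbegf (40.1 FPKM), Erbb3 (34.1 FPKM), Ereg (33.2 FPKM), Btc (30.7 FPKM), Erbb2 (20.8 FPKM), Tgfa (15.6 FPKM) and Egfr (9.73 FPKM). In KO the order of these genes was the same except for Hbegf, which went from position 2 of the 10 to position 7. With no replicates it cannot be said which neighbours in this order differ, and Erbb3, Ereg and Btc were close in WT, as were Ereg, Btc and Erbb2 in KO (21.9, 21.7 and 20.5 FPKM). Egf and Epgn stood far below the others.

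**Figure D1:**
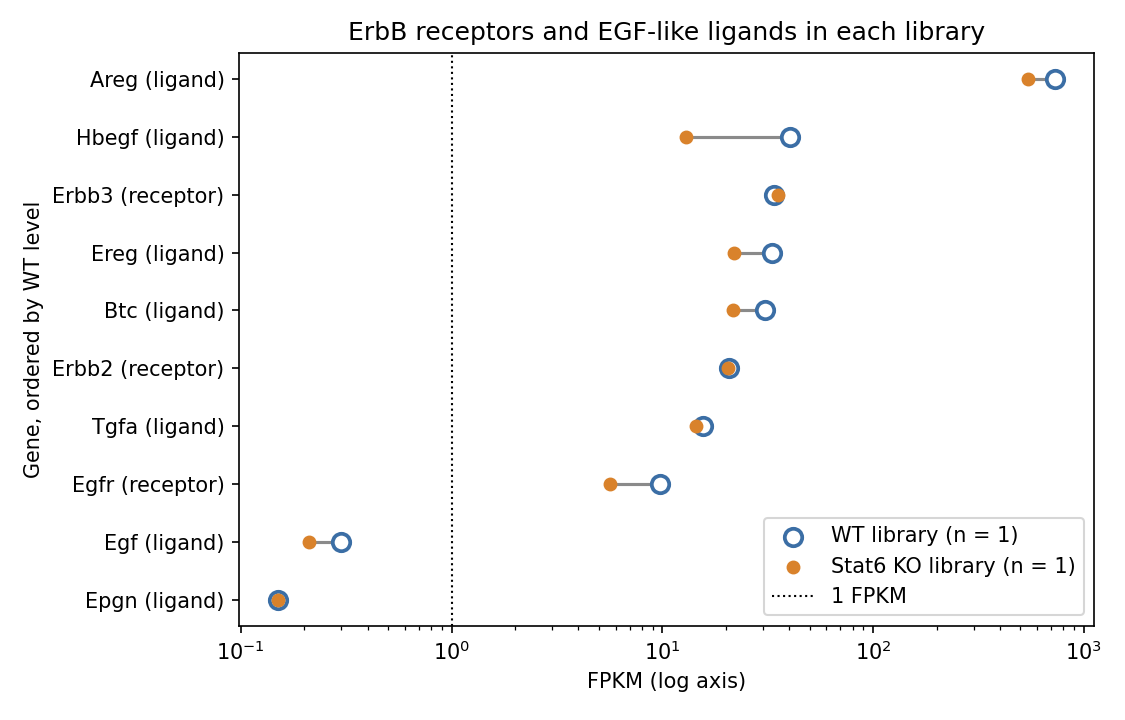
FPKM of each of the 10 genes on a log axis, ordered by WT level, with an open circle for the WT library and a filled one for the Stat6 KO library (n = 1 each); the dotted line is 1 FPKM. Hbegf has the widest gap, 40.1 against 12.9 FPKM, Erbb2 and Erbb3 nearly coincide, and Egf and Epgn lie under 1 FPKM in both libraries.

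Of the 8 measured members, all of them at 1 FPKM or more in both libraries, 1 was at least 2-fold lower in KO and 0 were higher. Over all measured genes, 2.19% were lower and 2.44% higher. Egf and Epgn did not reach 1 FPKM in either library. The median log2 ratio of the 8 was -0.45, beside -0.18 for all measured genes, and 5 of the 8 were under the latter. Past 1.5-fold, 2 of the 8 were lower and 0 higher, where 11.5% of all measured genes were lower and 5.71% higher. No test of the family against other genes was made.

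**Figure D2:**
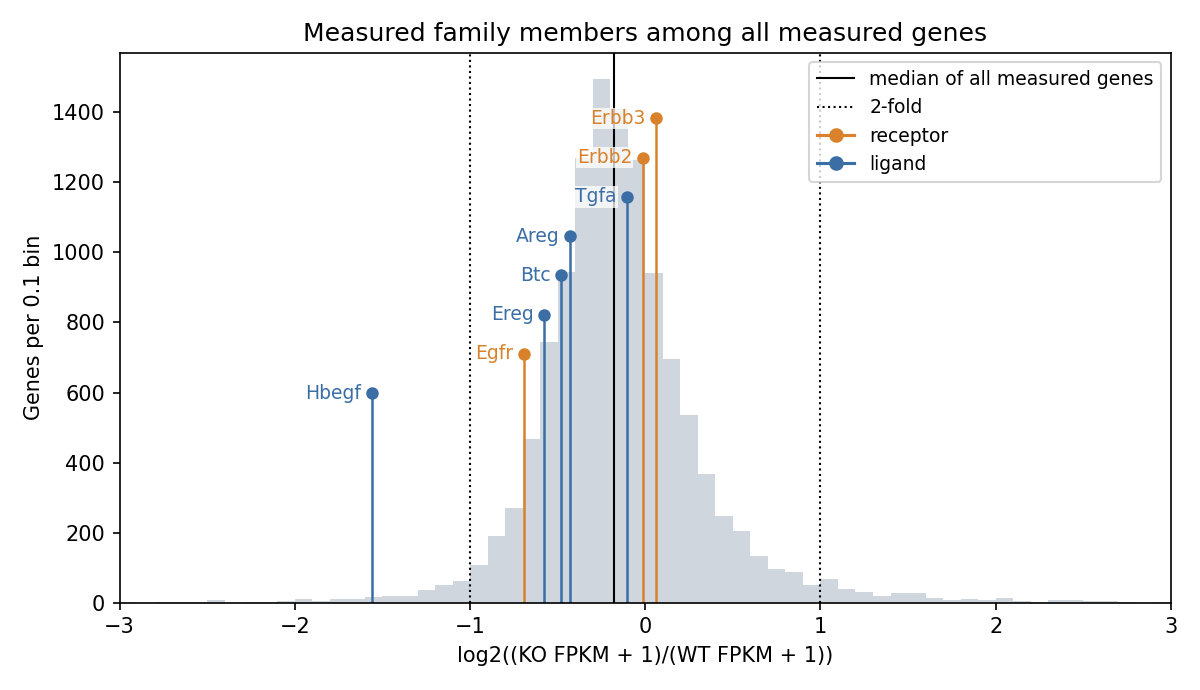
Histogram of the log2 ratio of all 12079 measured genes, cut at 3 on either side, with the 8 measured members marked at their own log2 ratio (receptors orange, ligands blue; marker heights are only for legibility). Hbegf at -1.56 is the 1 member beyond the dotted 2-fold lines, and the other 7 lie between -0.69 (Egfr) and 0.06 (Erbb3).

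Among the receptors, Egfr was lower in KO while Erbb2 and Erbb3 were almost level. Egfr (Entrez gene 13649) encodes a receptor that binds these ligands directly. It was at 9.73 FPKM in WT against 5.63 in KO, which is 57.9% of the WT value. Its log2 ratio of -0.69 (-0.51 relative to all genes) was undercut by 7.05% of the measured genes, and it did not pass 2-fold. The annotation gives Egfr coding transcripts of 2943 and 10208 bases, and the files do not say how reads were divided between them. At the shorter length and the depth estimated from the values, they stand for about 563 and 323 reads, and the KO to WT ratio of 0.579 had a 95% exact binomial interval of 0.504 to 0.666, for counting error only.

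Erbb2 (Entrez gene 13866), the partner receptor with no known ligand of its own, was at 20.8 FPKM in WT against 20.5 in KO, a log2 ratio of -0.01. Erbb3 (Entrez gene 13867), a neuregulin receptor with weak kinase activity that signals through its partners, had 34.1 FPKM in WT against 35.6 in KO (log2 ratio 0.06). Relative to all genes these were 0.17 and 0.24. The sign for Erbb2 turned with the scaling, from -0.02 to 0.21 over the settings tried, whereas Erbb3 stayed between 0.06 and 0.29.

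Ratios between genes of the same library do not depend on the scaling of that library. Egfr stood at 0.286 of the Erbb3 level in WT and at 0.158 in KO. Against Erbb2 it stood at 0.469 in WT and 0.274 in KO. Erbb3 was 1.64 times Erbb2 in WT and 1.73 times in KO, so the balance of these 2 receptors was nearly the same in both libraries. Of the summed FPKM of the 3 receptors, 64.5 in WT and 61.7 in KO, Egfr made up 15.1% and 9.12%.

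Among the ligands, Hbegf was 3.10-fold lower in KO by FPKM, Ereg, Btc and Areg were lower by less than 2-fold, and Tgfa was nearly level. All 5 measured ligands had a log2 ratio below 0, as 69.6% of all measured genes did, and 4 of the 5 were under the all-gene median. Their median log2 ratio was -0.48, or -0.30 relative to all genes.

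Hbegf (Entrez gene 15200) encodes heparin-binding EGF-like growth factor, a ligand of EGFR and ERBB4 that is induced by injury and stress. It was at 40.1 FPKM in WT against 12.9 in KO, 32.2% of the WT value, and its log2 ratio was -1.56, or -1.38 relative to all genes. Only 62 of the 12079 measured genes had a lower log2 ratio. At a depth estimated from the values at 19900000 reads in WT and 19700000 in KO (the labels state an average of 59000000 sequenced reads), the levels stand for about 1868 and 596 reads, and the KO to WT ratio of 0.322 had a counting interval of 0.293 to 0.354. Within each library, Hbegf was 1.21 times Ereg and 1.31 times Btc in WT but 0.590 of Ereg and 0.596 of Btc in KO. Against Tgfa it was 2.57 times in WT and 0.892 in KO.

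Areg, Ereg, Btc and Epgn lie in a row on chromosome 5, in the order Epgn, Ereg, Areg, Btc, with no other protein-coding gene of the RefSeq table between them. Ereg (Entrez gene 13874), which encodes epiregulin, a ligand of EGFR and ERBB4 also high in regenerating gut epithelium, was at 33.2 FPKM in WT against 21.9 in KO. Its log2 ratio was -0.58, just short of 1.5-fold with the added 1 FPKM, and by FPKM alone it was 1.52-fold lower. Btc (Entrez gene 12223), which encodes betacellulin, another ligand of EGFR and ERBB4, was at 30.7 and 21.7 FPKM (log2 ratio -0.48). Areg (Entrez gene 11839) had a log2 ratio of -0.43. Relative to all genes the log2 ratios of Ereg, Btc and Areg were -0.40, -0.30 and -0.25.

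These 3 expressed neighbours kept nearly the same proportions to each other. Areg was 22.1 times Ereg in WT and 24.8 times in KO, and Ereg was 1.08 times Btc in WT and 1.01 times in KO. Epgn (Entrez gene 71920), the fourth gene of the row, encodes epigen and was at 0.15 FPKM in both libraries. That value is about 5 reads in each, and its ratio of 1 had a counting interval of 0.232 to 4.39, so a difference of that size was not detectable at this depth.

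Tgfa (Entrez gene 21802), which encodes transforming growth factor alpha, was at 15.6 FPKM in WT against 14.5 in KO. Its log2 ratio was -0.10, or 0.08 relative to all genes, and its sign turned with the scaling, over a range of -0.11 to 0.11. Egf (Entrez gene 13645), the founding ligand, which was also added to the medium as protein, was at 0.3 FPKM in WT against 0.21 in KO. Depending on the transcript these values stand for about 19 to 28 reads in WT and 13 to 20 reads in KO. The counting interval of its ratio, 0.314 to 1.48, takes in both lower and higher values.

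Summed over the 7 ligands, the level was 853 FPKM in WT against 616 in KO, which is 13.2 and 9.97 times the summed receptor level. Areg made up 85.9% of the ligand sum in WT and 88.4% in KO. Without Areg the sums were 120 and 71.4 FPKM. Hbegf accounted for 4.71% of the ligand sum in WT and 2.10% in KO, the share of Tgfa went from 1.83% to 2.35%, and the shares of Ereg (3.89% and 3.56%) and Btc (3.59% and 3.52%) stayed close.

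**Figure D3:**
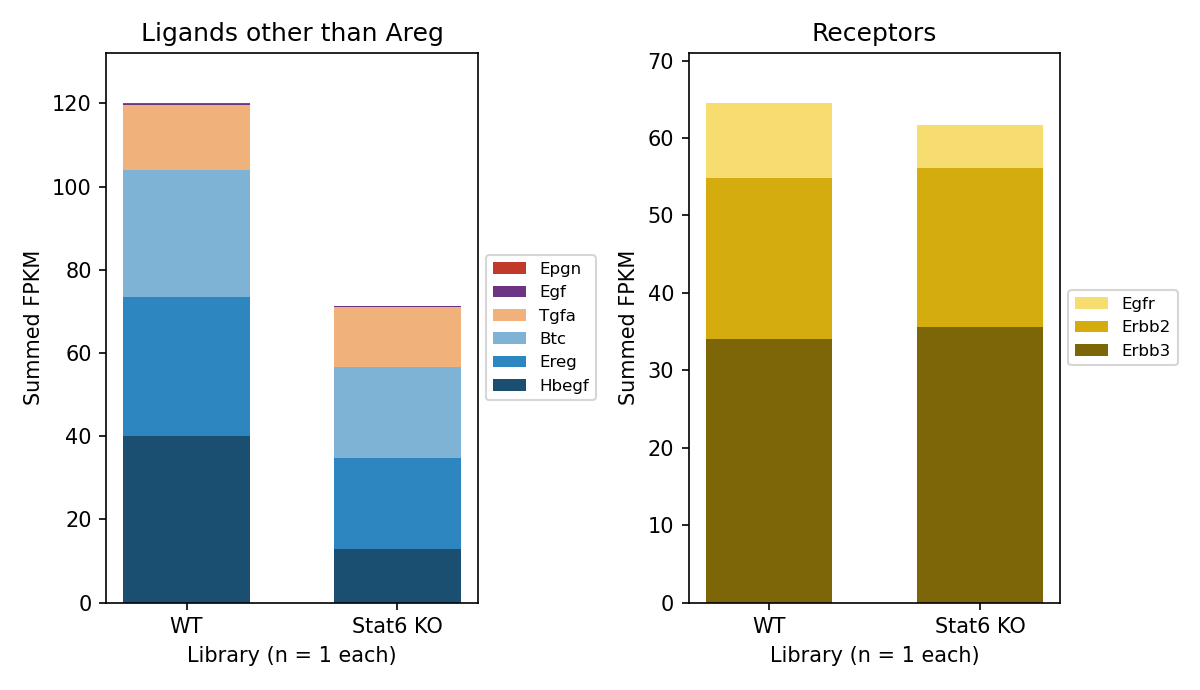
Stacked FPKM of the ligands other than Areg (left) and of the 3 receptors (right) in the WT and Stat6 KO libraries (n = 1 each). The ligand stack goes from 120 FPKM in WT to 71.4 FPKM in KO with the Hbegf block shrinking most, and the receptor stack goes from 64.5 to 61.7 FPKM with a smaller Egfr block on nearly equal Erbb2 and Erbb3 blocks.

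The other ErbB ligands and the steps before and after the receptors were described from lists chosen by function. Earlier results of these data were known when the lists were chosen. Erbb4 was not analysed here. Of the 4 neuregulins, ligands of ERBB3, ERBB4 or both, only Nrg4 reached 1 FPKM, with 1.12 FPKM in WT against 0.49 in KO (log2 ratio -0.51), while Nrg1, Nrg2 and Nrg3 lay between 0.03 and 0.44 FPKM. Erbb3 was thus well expressed in both libraries beside low levels of neuregulin transcripts.

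Genes that release the ligands had 0 of 8 measured members past 2-fold, beside 2.19% lower and 2.44% higher over all measured genes. Past 1.5-fold, 2 of the 8 were lower and 0 higher, beside 11.5% and 5.71%. The median log2 ratio of the list was -0.07. The lowest was Adam8, a metalloproteinase (11.3 and 5.75 FPKM, log2 ratio -0.86), and the highest Frmd8, which stabilises the release complex (28.6 and 34.5 FPKM, 0.26). Named beyond the rule, after their values were seen, were the main sheddase Adam17 (9.93 and 9.35 FPKM, -0.08), the related Adam10 (42.5 and 45.3 FPKM, 0.09) and Rhbdf2, which carries ADAM17 to the surface (16.4 and 9.96 FPKM, -0.67). Genes that restrain the receptors had 0 of 13 past 2-fold or 1.5-fold, beside the same all-gene shares. Their median was -0.07, from the receptor inhibitor Lrig1 (24.9 and 18.6 FPKM, -0.41) to Socs4 (0.20). A count of 0 past 2-fold in lists this short says little.

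By their medians, the signalling routes below the receptors were close to level. The RAS-ERK cascade had 0 of 19 genes past 2-fold, beside 2.19% lower and 2.44% higher over all measured genes. Past 1.5-fold, 1 was higher (Ksr1) and 0 lower, beside 5.71% and 11.5%. The median log2 ratio was -0.05, from Hras (32.2 and 21.8 FPKM, -0.54) to the scaffold Ksr1 (7.53 and 12.2 FPKM, 0.62). The PI3K-AKT branch had 0 of 11 past 2-fold or 1.5-fold and a median of -0.05, with the regulatory subunit Pik3r1 highest (0.22). At such all-gene shares, a count of 0 past 2-fold in lists this short says little. Both medians lay 0.13 above that of all genes.

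Genes that respond to ERK signalling lay lower, with members on both sides. Of 19 measured, 2 were at least 2-fold lower and 0 higher, beside 2.19% and 2.44% of all measured genes. Past 1.5-fold, 5 were lower and 1 higher, beside 11.5% and 5.71%. The median log2 ratio was -0.48 (-0.30 relative to all genes) and 16 of 19 were under the all-gene median. The 2 were the AP-1 subunit Fosl1 (16.8 and 4.07 FPKM, -1.81) and the ETS factor Etv4 (13.6 and 6.10 FPKM, -1.04). The latter fell short of 2-fold with the TMM factor. Dusp6, the phosphatase that switches off ERK and is among its best-known targets, was the highest at 34.5 FPKM in WT against 53.8 in KO (0.63). The direction was therefore not uniform across ERK response genes.

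**Figure D4:**
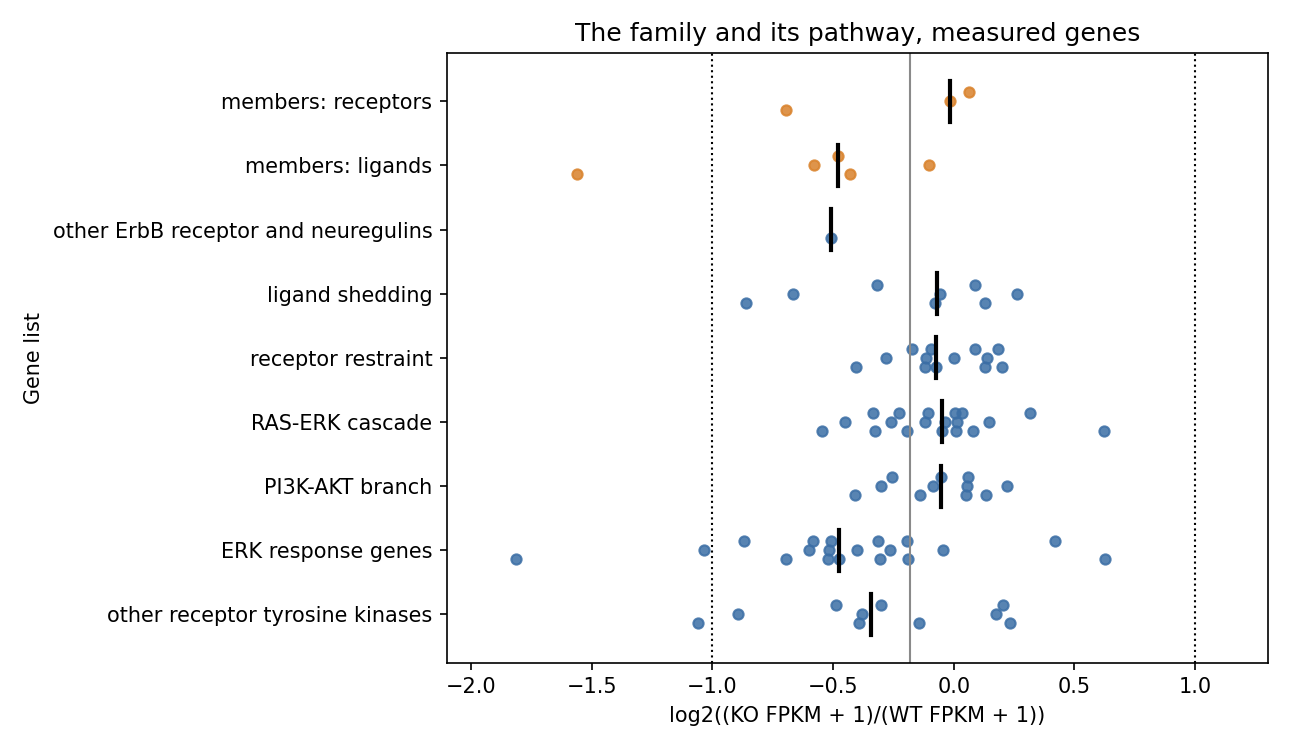
Log2 ratio of every measured gene of the family (orange) and of the pathway lists (blue), 1 point per gene with vertical spread only for legibility; black bars are list medians, the grey line is the median of all measured genes and dotted lines mark 2-fold. The ligands and the ERK response genes have medians of -0.48, and the cascade, restraint and shedding lists have medians from -0.07 to -0.05.

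Markers of other cells differed between the same libraries. The 6 white blood cell markers summed to 36.2 FPKM in WT against 14.6 in KO, with Cd68 at 17.7 and 6.08 FPKM and the defining gene Ptprc at 1.43 and 0.57 FPKM. The 5 endothelial markers summed to 12.6 and 5.15 FPKM. Of the 6 fibroblast markers only Dcn reached 1 FPKM (2.75 and 0.88 FPKM), while Col3a1 was at 0.32 and Pdgfra at 0.05 FPKM in both libraries, and the list summed to 4.44 and 2.18 FPKM. No marker of these lists was at 0 in either library. Hbegf, which macrophages also express, was at 40.1 and 12.9 FPKM, and the part of these cells in its difference was not tested. The 6 Paneth cell markers summed to 1793 and 1905 FPKM. Of the 6, Pla2g2a was lower in KO (235 and 111 FPKM, log2 ratio -1.08) and 5 had log2 ratios above 0. The markers of that EGF and TGF-alpha source were thus abundant in both libraries, beside Egf under 1 FPKM and Tgfa at 15.6 and 14.5 FPKM. The part of the higher enterocyte markers in KO in any of the differences was not tested either.

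The differences were recomputed with 2 other pseudocounts and 4 other scalings. Hbegf stayed at least 2-fold lower in KO in each, with log2 ratios from -1.63 to -1.33. Egfr (-0.78 to -0.47), Ereg (-0.60 to -0.36), Btc (-0.50 to -0.26) and Areg (-0.43 to -0.20) stayed below 0 and short of 2-fold.

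**Figure D5:**
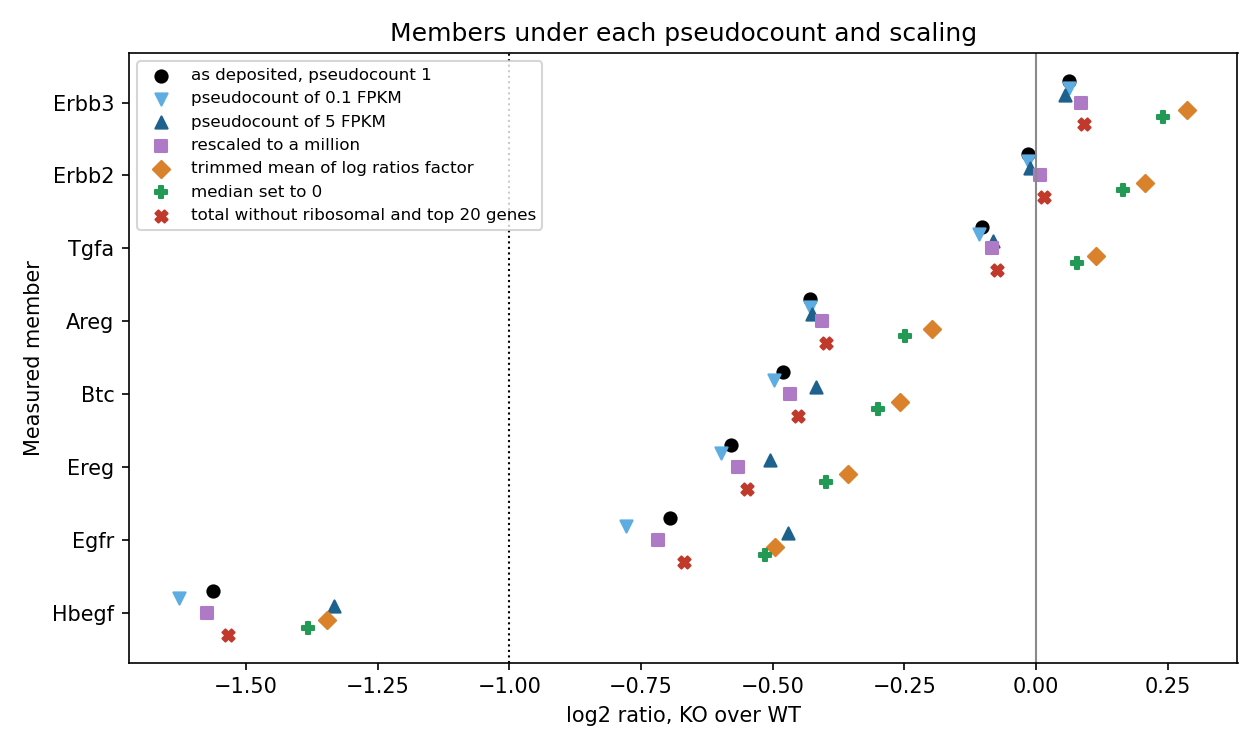
Log2 ratio of the 8 measured members (KO over WT) under the reported setting and 6 alternatives of pseudocount or scaling, with a dotted line at 2-fold lower. Hbegf lies left of that line in all 7, Egfr, Ereg, Btc and Areg lie between it and 0, and Erbb2 and Tgfa lie on both sides of 0.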

How the data were processed

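Both tables hold FPKM per Entrez gene, deposited by the authors with 2 decimals, per the file headers. HISAT, Bowtie2, RSEM and the mm9 build are named in the submitters' processing notes; their roles and versions, the annotation and any filters were not given in the sources used here. Per the labels' protocols, reads were single-end with 50 bases. The tables were joined on gene number (Python 3.11.15, pandas 2.3.3, scipy 1.17.1). Log2 ratios used a pseudocount of 1 FPKM. No test was possible with 1 library per genotype. The calculation was tested on simulated data, with counting noise only and planted changes larger than 2-fold. Changes near 2-fold, calls at 1.5-fold and variation between cultures were not covered there.

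Depth was estimated from the FPKM steps of short RNA genes, at 19900000 reads in WT and 19700000 reads in KO, which placed 85.5% and 88.1% of the values of 5 reads or fewer within 0.1 of whole reads. The search stopped at 30000000 reads, below the 59000000 reads per sample that the labels state on average (2.96 times the WT estimate). If that were the depth behind the values, read numbers would be larger by about this factor and counting intervals narrower. Depth was chosen to maximise this share, and multiples of it would also give whole reads. Read numbers use GENCODE transcript lengths, less 36 bases in WT and 35 bases in KO, and are approximate. Counting intervals use the exact (Clopper-Pearson) method at 95%. Reference tables are of a later build than mm9, so no coordinates are given except for the printed promoters.

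Members and lists were chosen with earlier results of these data known. Named genes were all members and, per list, those past 2-fold plus the highest and the lowest; an item this rule selects is not reported here. Groups came from the genotype labels. Some lists of markers were only summed: goblet cells at 1610 and 2000 FPKM (WT and KO), enteroendocrine cells at 671 and 355 FPKM, tuft cells at 12.4 and 9.05 FPKM and muscle at 2.60 and 2.42 FPKM. The Lgr5 stem cell list, with genes also named above, summed to 72.0 and 54.1 FPKM. Sums can hide mixed directions. Of the goblet markers 4 had log2 ratios above 0 and 2 below, and of the stem cell markers 2 above and 4 below.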

Additional observations from a re-analysis of the deposited data

How the results depend on the processing

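Alternatives were pseudocounts of 0.1 and 5 FPKM, rescaling to equal totals (TPM), a TMM factor, the median set to 0, a total without ribosomal protein genes and the 20 most abundant genes, no minimum level, a minimum mean of 1 or 5 FPKM, and thresholds of 1.5-fold and 4-fold. The count of members at least 2-fold lower was 1 in each, except 2 at 1.5-fold (Egfr added) and 0 at 4-fold, and no member was higher in any. The median of the members ranged from -0.46 with a pseudocount of 0.1 to -0.23 with the TMM factor, and was -0.27 with no minimum, where Egf and Epgn entered. Beside 2.19% lower and 2.44% higher over all measured genes, the pathway lists together had 3 genes at least 2-fold lower and 0 higher. These 3 were Etv4 and Fosl1, of 19 measured ERK response genes, and Fgfr4, of 10 other receptor tyrosine kinases. The lower count was 5 with a pseudocount of 0.1, 4 with TPM (Fgfr1 added), 2 with a minimum mean of 5 FPKM (without Fgfr4), 1 (Fosl1) with a pseudocount of 5, with the TMM factor and with the median set to 0, and 0 at 4-fold. At 1.5-fold it was 9, with 2 higher (Dusp6 and Ksr1), where 11.5% of all measured genes were lower and 5.71% higher. The 9 were 5 of 19 ERK response genes, 2 of 8 shedding genes and 2 of 10 other receptor tyrosine kinases. At 1.5-fold, 0 of 19 cascade, 0 of 13 restraint, 0 of 11 PI3K-AKT and 0 of 1 measured neuregulin genes were lower. Over all genes, 295 were higher and 264 lower, against 374 and 607 with a pseudocount of 0.1, 144 and 63 with 5, and 437 and 171 with the TMM factor. The cause of these shifts was not tested.

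At the estimated depth and the deposited scaling, counting intervals of the KO to WT ratio took in 1 for Egf, Epgn, Tgfa (0.859 to 1.0007) and Erbb2 (0.930 to 1.05). Under those settings counting error alone leaves their direction undetermined. Tgfa only just reached 1, and Erbb3 (1.00065 to 1.09) only just missed it. A larger depth would narrow both intervals, which cover counting error only. No paired analysis was possible because each genotype has 1 library. Leaving out a replicate was not possible for the same reason. Under a minimum mean of 1 or 5 FPKM the neuregulin list had no measured gene and gave no median.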

Other observations

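Receptor tyrosine kinases outside the ErbB family were compared as a further list. Of 10 measured, 1 was at least 2-fold lower in KO and 0 higher, beside 2.19% and 2.44% of all measured genes. The median log2 ratio of the list was -0.34, or -0.16 relative to all genes. The FGF receptors differed among themselves. Fgfr4 was at 6.71 FPKM in WT against 2.70 in KO (log2 ratio -1.06), whereas Fgfr3 was at 7.05 and 8.45 FPKM (0.23), the highest of the list. Fgfr4 passed 2-fold as deposited but not with the TMM factor. Met, the hepatocyte growth factor receptor, and Insr, the insulin receptor, named after their values were seen, had log2 ratios of -0.14 and 0.20.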
